A study of Mus musculus with 7 samples.

Results

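Chromatin accessibility on day 3 of doxycycline (DOX) was compared with that on day 6, between the 48087 peaks called on day 3 and the 44855 called on day 6. A day 3 peak without a day 6 peak overlapping it by 1 bp or more was counted as lost, a day 6 peak without a day 3 peak as gained, and the rest as kept. Merged together, both lists made 58462 regions, out of 104346 regions in the 7 libraries of the experiment. Cells of both days were mouse embryonic fibroblasts (MEFs) given DOX at 2 µg/mL for 3 or 6 days. They carried a DOX-inducible cassette of Oct4, Klf4, Sox2 and c-Myc (OKSM) at Col1a1, and rtTA*M2, the transactivator that DOX switches on, at ROSA 26. The libraries of day 0 (the same MEFs without DOX) and of days 1, 2 and 9 were used only to see where else a peak was called, as was the library of untreated embryonic stem cells (ESCs). The ESC library is labelled as the Bruce-4 line, although its genotype entry repeats that of the MEFs. Each time-point is 1 library, so no difference below has a replicate check, and none was tested. The 95% intervals are exact (Clopper-Pearson), cover counting error only and treat neighbouring peaks as independent. The read depth is unknown, so a missing peak means that none was called, and a change in all cells cannot be told apart from a change in some of them.

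In ATAC-seq, the Tn5 transposase cuts DNA that is not wrapped in nucleosomes, and regions cut often are called as peaks. Fibroblasts keep many of their enhancers open through AP-1, the dimer of Fos and Jun family proteins, which binds a short palindrome. During reprogramming the fibroblast enhancers are known to close, epithelial genes are switched on in the mesenchymal-to-epithelial transition (MET), and enhancers bound by Oct4 and Sox2 open late.

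The following 5 stretches of reference sequence show the widest lost peaks with an AP-1 motif among those called in every library from day 0 to day 3 and missing from the 3 others (day 6, day 9 and ESCs). Each is the plus strand of mm10 (RefSeq's GRCm38.p6), read 5′ to 3′, with 60 bases on either side of the motif, which is in capitals (TGANTCA, where N is any base).
lost 1, chr9:101445891-101446017: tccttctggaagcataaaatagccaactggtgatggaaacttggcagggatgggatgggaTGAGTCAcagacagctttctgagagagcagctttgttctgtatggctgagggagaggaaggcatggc
lost 2, chr12:34041098-34041224: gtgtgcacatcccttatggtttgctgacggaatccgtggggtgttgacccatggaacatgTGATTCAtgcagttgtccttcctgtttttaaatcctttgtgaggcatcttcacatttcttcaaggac
lost 3, chr10:43943813-43943939: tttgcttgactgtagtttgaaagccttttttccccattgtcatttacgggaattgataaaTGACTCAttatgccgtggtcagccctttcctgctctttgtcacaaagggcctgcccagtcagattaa
lost 4, chr5:100622808-100622934: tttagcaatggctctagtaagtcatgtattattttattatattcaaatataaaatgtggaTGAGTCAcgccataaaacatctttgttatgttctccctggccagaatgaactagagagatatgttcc
lost 5, chr15:38572783-38572909: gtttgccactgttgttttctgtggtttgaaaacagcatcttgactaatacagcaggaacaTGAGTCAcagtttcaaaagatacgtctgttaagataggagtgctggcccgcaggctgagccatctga
The peaks they come from were 631 to 669 bp wide. The nearest protein-coding TSS was that of Ppp2r3a for lost 1 (193774 bp away), of Twist1 for lost 2 (83117 bp), of Rtn4ip1 for lost 3 (22430 bp), of Coq2 for lost 4 (41181 bp) and of Azin1 for lost 5 (53241 bp). Twist1 encodes a mesenchymal transcription factor. The centres of lost 3 and lost 5 lie in introns and those of the other 3 between genes in GENCODE M21. Of the other 19 motifs searched, the printed stretch of lost 3 also holds the Sox motif, that of lost 4 the C/EBP motif and that of lost 5 the RUNX motif. The 623 lost peaks with this history were 4.09% of all lost peaks, and 196 of them (31.5%) held the AP-1 motif in their central 200 bp.

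For gained peaks, the same choice was made with the Oct-Sox composite motif (TTGTNATGC) among peaks of day 6, day 9 and ESCs without a peak on days 0 to 3. The motif was found in 1 of these 144 peaks, which is printed in the same way.
gained 1, chr9:3988254-3988382: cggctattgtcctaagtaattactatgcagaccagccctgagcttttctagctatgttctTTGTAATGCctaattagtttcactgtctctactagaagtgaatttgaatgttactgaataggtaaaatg
This peak was 205 bp wide and lay 321028 bp from the nearest protein-coding TSS, that of Aasdhppt, between genes.

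Of the day 3 peaks, 15216 were lost by day 6 (31.6%, interval 31.2 to 32.1), and 11930 of the day 6 peaks were gained (26.6%, 26.2 to 27.0). As merged regions, 31334 were open on both days (53.6%), 15207 on day 3 only and 11921 on day 6 only. In the step before, measured in the same way, 16.7% of the 33174 day 2 peaks were lost by day 3, and 44.1% of the day 3 peaks were gained. In the step after, 40.2% of the day 6 peaks were lost by day 9, and 17.6% of the 33007 day 9 peaks were gained. Loss and gain were spread over the genome. Among chromosomes 1 to 19 and X, the lost share ranged from 27.8% on chromosome 7 to 34.9% on chromosome 14, and the gained share from 22.4% on chromosome 19 to 28.7% on chromosome 14.

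The peaks that came and went were narrow. Lost peaks had a median width of 228 bp and gained peaks one of 219 bp, against 518 bp for the kept day 3 peaks and 512 bp for the kept day 6 peaks. The smallest width a peak has in these lists is 200 bp, and 30.4% of lost and 32.9% of gained peaks had it, against 6.88% of kept day 3 peaks. Of the day 3 peaks 200 bp wide, 67.1% were lost, and of those over 600 bp wide, 1.42% were lost. Gained shares were 60.6% and 0.693% in the same width classes. The widest lost peak had 876 bp and the widest gained peak 853 bp, while kept peaks reached 3821 bp. Since the lists give no score, width is the only measure of a peak here. A wider peak also overlaps a peak of the other day more easily by its length alone, and this part was not separated.

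**Figure D1:**
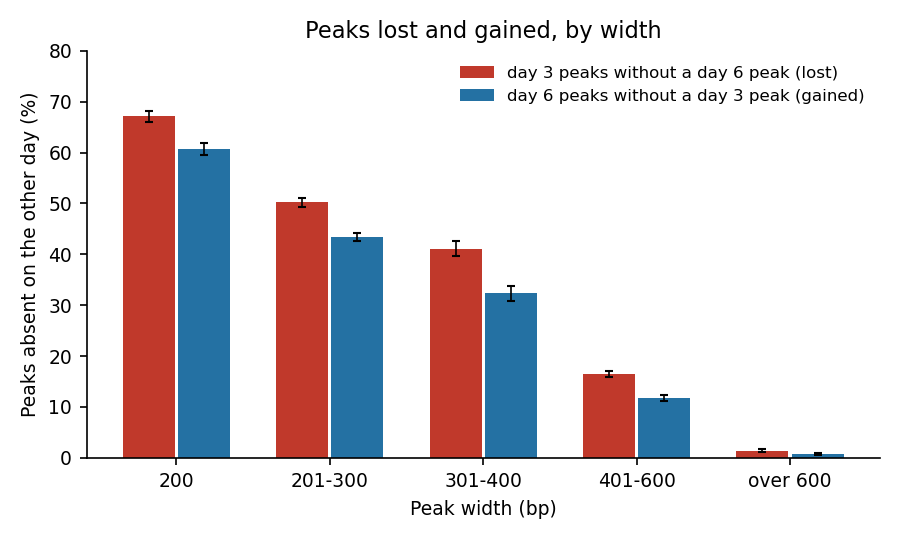
Share of peaks absent on the other day (%) in 5 classes of peak width (bp), for day 3 peaks (red, lost) and day 6 peaks (blue, gained). Bars start at 0 and error bars are exact 95% intervals. Both shares drop from over 60% at 200 bp to under 2% above 600 bp.

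Most lost peaks had no day 0 peak. The day 0 list held 35.7% of them, the day 1 list 38.8% and the day 2 list 20.9%, and 33.0% (5014 peaks) were called on day 3 alone. Another 25.9% (3947 peaks) lacked a day 0 peak and had one on day 1 or 2, so they were first called after induction and were not called on day 6. After day 6, 14.4% of lost peaks had a peak on day 9, and 6.89% had one in ESCs. Gained peaks were split between newly called and returning sites. Those with a peak on day 0, 1 or 2 were 52.97%, and 36.7% had one on day 0, close to the share of lost peaks. The remaining 47.0% (5611 peaks) were seen on day 6 for the first time. Of all gained peaks, 22.9% were still called on day 9 and 10.2% in ESCs, and 36.2% belonged to day 6 alone. Kept day 3 peaks were called in the day 0 library in 69.1% of cases, in the day 9 library in 73.6% and in ESCs in 39.99%.

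**Figure D2:**
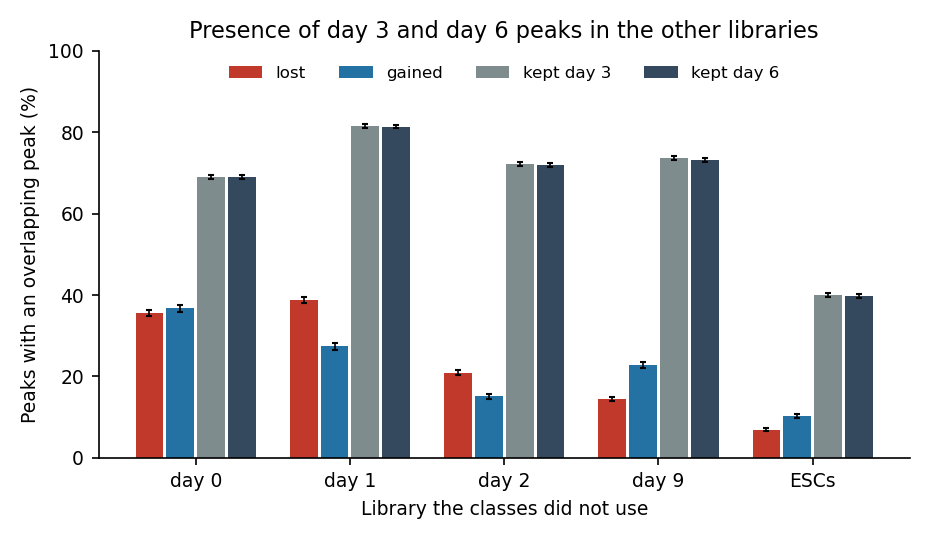
Share of lost, gained and kept peaks (%) with an overlapping peak in the 5 libraries that did not define the classes. Bars start at 0 and error bars are exact 95% intervals. Lost peaks lie above gained peaks on days 1 and 2 and below them on day 9 and in ESCs, and both lie below kept peaks in each library.

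The number of other libraries with a peak went with the chance of being lost. Of the 6422 day 3 peaks found in none of the 5 other libraries (days 0, 1, 2, 9 and ESCs), 78.1% were lost. This share was 42.1% among the 8174 found in 2 of them and 0.464% among the 10134 found in all 5. For day 6 peaks, 75.2% of those found in none were gained, and 0.691% of those found in all 5. Width moved along with this, from a median of 212 bp for day 3 peaks found in none to 660 bp for those found in all 5, and its part in these shares was not tested. Within the class over 400 and up to 600 bp, 63.5% of lost peaks had a day 1 peak against 42.5% of gained peaks, and 22.1% had a day 9 peak against 43.8%. From a lost peak to the nearest day 6 peak the median gap was 10991 bp, and 16.7% of lost peaks lay within 500 bp of one. From a gained peak to the nearest day 3 peak it was 8373 bp, and 20.6% lay within 500 bp.

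Both classes lay away from TSSs. A TSS of any annotated gene was within 1000 bp for 15.1% of lost peaks (14.5 to 15.7), 20.3% of gained peaks (19.6 to 21.1) and 42.1% of kept day 3 peaks (41.5 to 42.6). The peak covered a protein-coding TSS in 2.59% of lost, 5.04% of gained and 28.7% of kept day 3 peaks. Introns held 44.5% of lost, 40.4% of gained and 29.9% of kept day 3 peaks, by the centre of the peak and leaving out those near a TSS. The median GC content of the central 200 bp was 46.5% for lost, 48.5% for gained and 52.5% for kept day 3 peaks. Seen from the day 3 list, 14.2% of TSS-proximal peaks and 40.4% of distal peaks were lost.

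The AP-1 motif was more frequent in lost than in gained peaks. It was found in the central 200 bp of 16.1% of lost peaks (15.5 to 16.7), 13.5% of kept day 3 peaks (13.1 to 13.8) and 7.43% of gained peaks (6.97 to 7.92). In all merged regions of the 7 libraries the share was 16.0%, and among all peaks it was 14.3% on day 3 and 11.1% on day 6. Among distal peaks over 300 bp wide, 28.1% of lost peaks held it (26.6 to 29.6), against 24.8% of kept day 3 peaks (24.0 to 25.5) and 11.4% of gained peaks (10.0 to 12.9). Within the class over 400 and up to 600 bp the shares were 32.6% for lost, 20.3% for kept day 3 and 9.94% for gained peaks. The order was the same, with lost highest and gained lowest, in each of the 5 width classes, but the intervals of gained and kept day 3 peaks overlapped in the 4 classes other than this one.

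**Figure D3:**
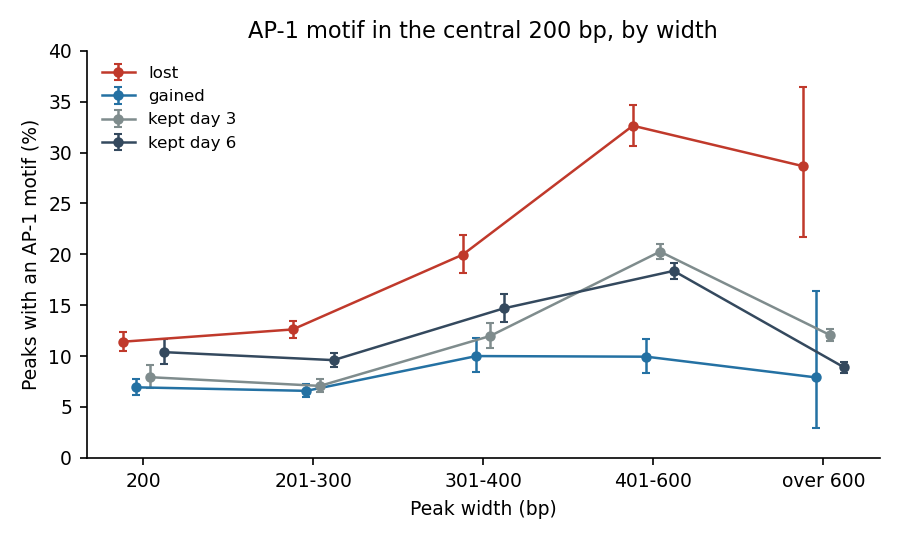
Share of peaks (%) with the AP-1 motif in the central 200 bp, by peak width (bp), for lost, gained and both sets of kept peaks. Points are shares and error bars exact 95% intervals. Between 400 and 600 bp, lost peaks reach 32.6% and gained peaks 9.94%, with the kept peaks between them.

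Turned around, 24.1% of day 3 peaks of over 400 and up to 600 bp with the motif were lost, against 14.3% of those without it. In the same width class 6.67% of day 6 peaks with the motif were gained, against 12.7% of those without. Lost peaks that already had a peak on day 0 held AP-1 in 21.6% of cases, those first seen on day 1 or 2 in 15.6%, and those of day 3 alone in 11.8%. Gained peaks not seen before day 6 held it in 5.94%, and those seen on an earlier day in 8.76%. Searching the whole peak in place of its centre put kept day 3 peaks (21.3%) above lost peaks (20.3%), with more sequence searched in the wider kept peaks.

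Among the other 19 motifs, the Sox motif (ACAATG) also had a higher share in lost peaks, 14.4% (13.9 to 15.0) against 10.1% of gained (9.61 to 10.7) and 10.5% of kept day 3 peaks. Sox2 is in the cassette, and other Sox proteins read the same letters. The motif was found in 19.4% of the lost peaks without a day 0 peak and with one on day 1 or 2, and in 11.1% of those with a day 0 peak. RUNX (AACCACA) and C/EBP (TTGCNNAA) motifs were also highest in lost peaks, at 5.78% (5.41 to 6.16) and 10.3% (9.81 to 10.8). Gained peaks held them in 4.67% and 8.61%, kept day 3 peaks in 4.54% and 8.31%, and all merged regions in 5.42% and 9.52%. CAGGTG, the E-box read by Zeb and Snai factors of the mesenchyme and by some helix-loop-helix proteins, was found in 13.7% of gained (13.1 to 14.3) and 10.7% of lost peaks (10.2 to 11.2). Its share was 23.6% in the 144 gained peaks first seen on day 6 and kept on day 9 and in ESCs. The Grhl motif (AACCNGTT) of the epithelial Grainyhead factors was found in 1.69% of gained, 1.29% of lost and 1.23% of kept day 3 peaks.

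The Oct-Sox composite differed little, with 0.98% of lost (0.829 to 1.15), 0.722% of gained (0.578 to 0.890) and 0.938% of kept day 3 peaks. Among lost peaks it was found in 0.479% of those with a day 0 peak and in 1.26% of those without one. The KLF motif (CCNCACCC) was found in 10.2% of lost, 11.1% of gained and 13.8% of kept day 3 peaks. Its share was 26.4% in the 144 gained peaks kept on day 9 and in ESCs, of which the GC content was not matched to other peaks. CTCF (CCAGNGGGC), which holds chromatin loops, was found in 1.01% of lost, 1.47% of gained and 2.34% of kept day 3 peaks. Of the day 3 peaks with the ETS motif (CCGGAAG), common in promoters, 7.96% were lost, and of those with CTCF 16.6%. In all merged regions of the 7 libraries, the shares were 11.7% for Sox, 11.7% for CAGGTG, 10.7% for KLF, 1.45% for Grhl, 1.03% for Oct-Sox, 1.53% for CTCF and 3.25% for ETS. Letters were read on both strands, a match is not a bound site, and motifs can overlap.

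**Figure D4:**
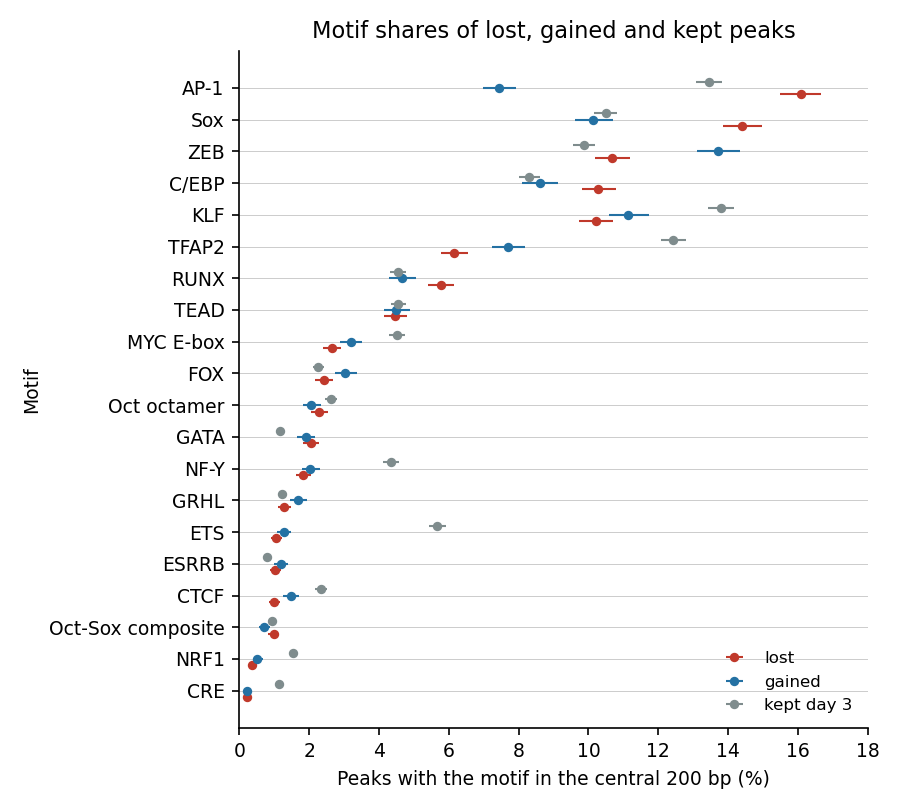
Share of peaks (%) with each of the 20 motifs in the central 200 bp, for lost (red), gained (blue) and kept day 3 peaks (grey), ordered by the share in lost peaks. Bars are exact 95% intervals. AP-1, Sox, C/EBP and RUNX have higher shares in lost than in gained or kept day 3 peaks. The Zeb E-box is higher in gained than in lost peaks.

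Among kept peaks, those that narrowed by day 6 held the AP-1 motif more often than those that widened. Of the kept peaks, 28306 paired 1 to 1 between the days, with median widths of 538 bp on day 3 and 533 bp on day 6. The log2 ratio of widths, day 6 over day 3, had a median of 0.00 and an SD over pairs of 0.54. On day 6, 1745 pairs were narrower by 2-fold or more (6.16%) and 1246 were wider (4.40%). The AP-1 motif, searched at the centre of the day 3 peak, was found in 27.7% of the pairs that narrowed. It was found in 13.5% of those within 2-fold and 5.54% of those that widened. Median day 3 widths of these groups were 526, 553 and 214 bp, in that order, and the part of width in these shares was not tested. Day 0 peaks overlapped 55.8% of the narrowed and 57.0% of the widened pairs, and ESC peaks 15.8% and 24.1%. At Egr1, an immediate early gene, a kept peak 3831 bp from the TSS went from 1248 bp on day 3 to 292 bp on day 6. At Socs1, an inhibitor of cytokine signalling, the peak over the TSS went from 1502 to 693 bp. The peak over the TSS of Dnmt3a, a de novo DNA methyltransferase, went from 275 to 986 bp, and that of Bmpr1a, a BMP receptor, from 298 to 1028 bp. These 4 were among the 5 largest changes in either direction.

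Promoters were taken as 1000 bp on either side of any TSS of a gene. Of 21910 protein-coding genes, 11801 had a promoter peak on both days. On day 3 only, 516 had one (4.19% of the 12317 open on day 3), and on day 6 only, 721 had one (5.76% of the 12522 open on day 6). Most single-day promoters had been open earlier. Of the 721, 469 had a day 0 peak and 175 had no peak on days 0 to 3. In 8 of them the promoter was open on day 9 and in ESCs as well, namely Chic1, Lhfpl5, Mgat4c, Nrtn, Pnp2, Serpinb6c, Sox21 and Zdhhc23. Sox21 encodes a SoxB factor, and its day 6 peak, from 118236560 to 118237318 on chromosome 14, was 759 bp wide and covered the TSS. In the other direction, 23 promoters were open in every library up to day 3 and in no later one, ESCs included. They included Tdgf1, the co-receptor of Nodal, Cbfa2t3 of the 9TR network, Col18a1 of the basement membrane and Rbms3.

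The label of the cells was checked against marker promoters. Of 10 fibroblast markers, 8 had a promoter peak on day 3 and 7 on day 6, against 9 at day 0, 6 at day 9 and 2 in ESCs. Col1a1, Col1a2, Thy1 and Snai2 had one on both days, as had Twist1, Twist2 and Pdgfrb. The promoter peak of Col3a1, the collagen III chain, was called on days 0 and 3 alone. Of 10 ESC markers, 3 had a promoter peak on day 3 (Pou5f1, Dppa5a and Tdgf1) and 1 on day 6 (Sox2). The count was 3 at day 0, 1 at day 9 and 3 in ESCs, so it did not separate the MEFs of day 0 from ESCs. Nanog, Sall4, Dppa4 and Lin28a had none in any of the 7 libraries, ESCs included. A missing promoter peak in these lists is therefore no sign that a gene was silent.

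Markers of other lineages had promoter peaks too. Over all 21910 protein-coding genes, 12317 had a promoter peak on day 3 and 12522 on day 6. On both days, promoter peaks were found at 2 of 6 macrophage, 2 of 5 endothelial, 1 of 4 endoderm and 0 of 4 skeletal muscle markers. At day 0 they were found at 3 of 6 macrophage, 4 of 5 endothelial, 2 of 4 endoderm and 4 of 5 neural markers. Of 5 neural markers 3 had one on day 3 and 2 on day 6, where Pax6 was the difference. Of 8 trophoblast and keratinocyte markers 2 had one on day 3 and 3 on day 6, with Tfap2c added. All 7 genes of the senescence and p53 list and 7 of 8 housekeeping genes were open on both days.

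The pluripotency network went both ways. Of its 23 genes, 7 had a promoter peak on both days, 5 on day 3 only, 2 on day 6 only and 9 on neither day. At day 0, 12 of them had one, and in ESCs 11. The promoters open on day 3 only were those of Pou5f1 (Oct4), Dppa5a, Tdgf1, Fgf4 and Utf1, and Sox2 was among those open on day 6 only. The Pou5f1 peak, from 35509524 to 35509753 on chromosome 17 (230 bp), lay 3506 bp inside the gene, near the start of a shorter transcript, and was also called in ESCs. The Sox2 peak, from 34649996 to 34650209 on chromosome 3 (214 bp), lay 196 bp from the gene's 5′ end and was called on no other day and not in ESCs. Elsewhere in the promoter windows, Sox2 had a peak on day 1, and the Pou5f1 promoter was open on days 0 and 9 too. Both genes are in the cassette. The Pou5f1 peak overlaps an exon, where reads of the transgene and of the endogenous gene cannot be told apart, and the Sox2 peak overlaps none. The Dppa5a peak (415 bp) was called on days 1, 2 and 3, and the wider Tdgf1 peak (435 bp) on days 0 to 3.

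Peaks were also given to the protein-coding gene with the nearest TSS, within 100 kb. Of 15789 genes with a peak, 4726 had more lost than gained peaks (29.9%) and 3542 more gained than lost (22.4%), and the median of gained minus lost was 0. In the pluripotency network, 19 of 44 day 3 peaks were lost (43.2%, 28.3 to 59.0) and 17 of 45 day 6 peaks gained (37.8%, 23.8 to 53.5), with 8 genes losing more and 6 gaining more. Nanog lost 3 peaks of 202 to 248 bp and gained none, and all 3 had a day 0 peak. Klf5 and Prdm14, a factor of naive pluripotency, gained 2 each and lost none. Esrrb, an orphan nuclear receptor, lost 2 and gained 3. With every list cut to peaks at least 300 bp wide before overlap, Klf5 and Esrrb turned round, with gained minus lost at -1 for either. After this cut, a kept peak whose partner was narrower also counts as lost or gained, as at Klf5, which lost none in the full lists. For the 10 ESC markers, 11 of 17 day 3 peaks were lost (64.7%, 38.3 to 85.8) and 4 of 11 day 6 peaks gained (36.4%, 10.9 to 69.2). The 9TR network of regulators of reprogramming lost 18 of 42 day 3 peaks (42.9%, 27.7 to 59.0) and gained 11 of 38 day 6 peaks (28.9%). Rcan1 and Gli2, 2 of its genes, lost 3 peaks each and gained 1 and 2. The 14 reprogramming factors that the study names, a list that is not independent of these cells, lost 16 of 52 (30.8%) and gained 18 of 53 (33.96%).

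Epithelial genes showed about as much loss as gain. Of the 27, 20 of 64 day 3 peaks were lost (31.2%, 20.2 to 44.1) and 20 of 61 day 6 peaks gained (32.8%, 21.3 to 46.0). Promoter peaks were called for 10 genes on day 3 and for 12 on day 6. The count was 9 at day 0, 9 at day 1, 10 at day 2, 14 at day 9 and 12 in ESCs. Dsp (desmoplakin, of desmosomes), Krt8 (a simple epithelial keratin), Ehf and Grhl3 had one on day 6 and not on day 3. Each of these promoters had a peak in an earlier library, Dsp on day 0, Grhl3 on days 0 and 1, Krt8 on day 1 and Ehf on day 2. Elf3 and Esrp1, a splicing regulator of epithelial cells, had a promoter peak on day 3 and not on day 6. The Krt8 peak of day 6 (448 bp) lay 26 bp from a day 3 peak outside the window, and the Esrp1 peak of day 3 overlapped a day 6 peak that ended outside it, so these 2 rest on the window. Grhl2, which opens epithelial enhancers, gained 3 peaks of 200 to 308 bp, lost none and kept a promoter peak on both days. Epcam, a surface protein of epithelial cells, gained 2 and lost none. Cdh1 (E-cadherin) kept 3 peaks and had a promoter peak in ESCs alone.

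Mesenchymal genes had a lost share near that of all peaks, and a gained share whose interval includes that of all peaks. The 19 factors and markers lost 30 of 94 day 3 peaks (31.9%, 22.7 to 42.3) and gained 15 of 76 day 6 peaks (19.7%, 11.5 to 30.5), with 11 genes losing more and 2 gaining more. Over all peaks, 31.6% were lost and 26.6% gained. Over all genes with a peak, 29.9% had more lost than gained peaks and 22.4% more gained than lost, not matched for the number of peaks per gene. Zeb1, a repressor of epithelial genes, lost 3 peaks of 249 to 342 bp and gained none, and its promoter was open on days 0, 1 and 9. Cdh2 (N-cadherin) lost 4 and gained 2, and Cdh11 lost 3 and gained 1, a promoter peak of 209 bp. Pdgfra, a growth factor receptor of fibroblasts, gained 2 and lost none. Around the 10 fibroblast markers, 16 of 53 day 3 peaks were lost (30.2%) and 8 of 44 day 6 peaks gained (18.2%).

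The 27 extracellular matrix genes lost 53 of 142 day 3 peaks (37.3%, 29.4 to 45.8) and gained 41 of 132 day 6 peaks (31.1%, 23.3 to 39.7). Promoters of 4 of them were open on day 3 only (Col3a1, Col6a3, Loxl2 and Serpine2) and of 2 on day 6 only (Col6a1 and Fbn2). Col3a1 lost all 5 of its peaks, of which the widest, from 45311327 to 45311830 on chromosome 1 (504 bp), covered the TSS, and the nearest day 6 peak lay 191007 bp away. Col4a1, a basement membrane collagen, lost 11 and gained 5. Loxl2, which cross-links collagen, lost 4, among them its promoter peak of 487 bp. Col1a2, a chain of collagen I, went the other way with 4 gained and 1 lost, and Col1a1, where the cassette sits, gained 2 and lost none. The 16 contractile cytoskeleton genes lost 23 of 67 (34.3%) and gained 19 of 61 (31.1%). Filip1l lost 6 and gained 1, and Tpm2, a tropomyosin, gained 2, both near one of its TSSs.

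Promoters of the AP-1 factor genes were mostly open on both days. The 10 genes lost 11 of 50 day 3 peaks (22.0%, 11.5 to 35.96) and gained 9 of 49 day 6 peaks (18.4%, 8.76 to 32.0), and 9 of 10 promoters were open on both days. Atf3 lost 4 and gained 2, Jun lost 2 and gained none, and Batf gained 2 and lost none. Fosl1 had a promoter peak up to day 6, which was missing in the day 9 and ESC libraries. For the 12 Runx, Tead and Cebp genes, 25 of 78 were lost (32.1%) and 17 of 68 gained (25%), with 11 promoters open on both days. Runx2, the regulator of bone and mesenchyme, lost 4 peaks and gained none, and 3 of the 4 had a day 0 peak. Cebpd gained 2 and lost none, and Cebpa lost 2 and gained none.

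In the TGF-beta, BMP and Nodal list of 20 genes, 33 of 103 day 3 peaks were lost (32.0%, 23.2 to 42.0) and 23 of 98 day 6 peaks gained (23.5%, 15.5 to 33.1). The inhibitory Smad7 gained 5 peaks of 210 to 481 bp and lost none, of which 2 had a day 9 peak and 2 an ESC peak. The other inhibitory Smad, Smad6, lost 3 and gained 1. Smad3, the signal transducer of TGF-beta, lost 8 and gained 4, with no lost peak wider than 269 bp. With every list cut to peaks at least 300 bp wide, gained minus lost was 2 at Smad3. The lost peaks counted there overlap narrower day 6 peaks. Bmpr1a lost 2 peaks while its promoter peak widened, as given above.

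For the remaining lists the counts were small. Senescence and p53 genes lost 10 of 24 (41.7%) and gained 7 of 22 (31.8%), where Mdm2, the inhibitor of p53, lost 4 and gained 1, and Cdkn2b, a cell cycle inhibitor, lost 1 and gained 3. Housekeeping genes lost 4 of 17 (23.5%) and gained 5 of 18 (27.8%). Endoderm markers lost 4 of 8 and gained 6 of 10, with 3 gained at Gata4 and 3 lost at Gata6. Endothelial markers lost 5 of 15 and gained 2 of 10, macrophage markers lost 5 of 9 and gained 4 of 8, and neural markers lost 5 of 11 and gained 5 of 10. Skeletal muscle markers lost 2 of 7 and gained 3 of 8, and trophoblast and keratinocyte markers lost 4 of 25 and gained 5 of 27. Per gene, the median of gained minus lost was -1 in 4 of the 20 lists (mesenchymal, TGF-beta, 9TR and endothelial). It was -0.5 in another 4, namely ESC markers, fibroblast markers, macrophage markers and the Runx, Tead and Cebp genes. Endoderm markers had a median of 1 and skeletal muscle markers one of 0.5, and in the other 10 lists it was 0, as over all genes.

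The other list genes that the naming rule picks had few such peaks. Runx1 lost 4 and gained 2, Ccn1 lost 4 and gained 3, and Sox1 lost 3 and gained 2. Ptprc and Myog each lost 2 and gained 1, and Rb1 and Trp63 each lost 2 and gained none. A single peak was lost and none gained at Cdh5, Kdr, Pecam1, Cldn4, Aif1, Spi1 and Cdx2. On the gained side, Sox17 and Adgre1 gained 2 and lost none, Ccn2 gained 3 and lost 2, and Batf3 and Gata3 gained 2 and lost 1. Hprt, Ppia, Neurog2, Etv5, Myod1 and Pax7 gained 1 and lost none. With every list cut to peaks at least 300 bp wide, gained minus lost changed sign at Batf3 (-2), Cdh5 (1) and Pax7 (-1). Kept peaks with a narrower partner count there too, as at Cdh5 and Pax7.

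**Figure D5:**
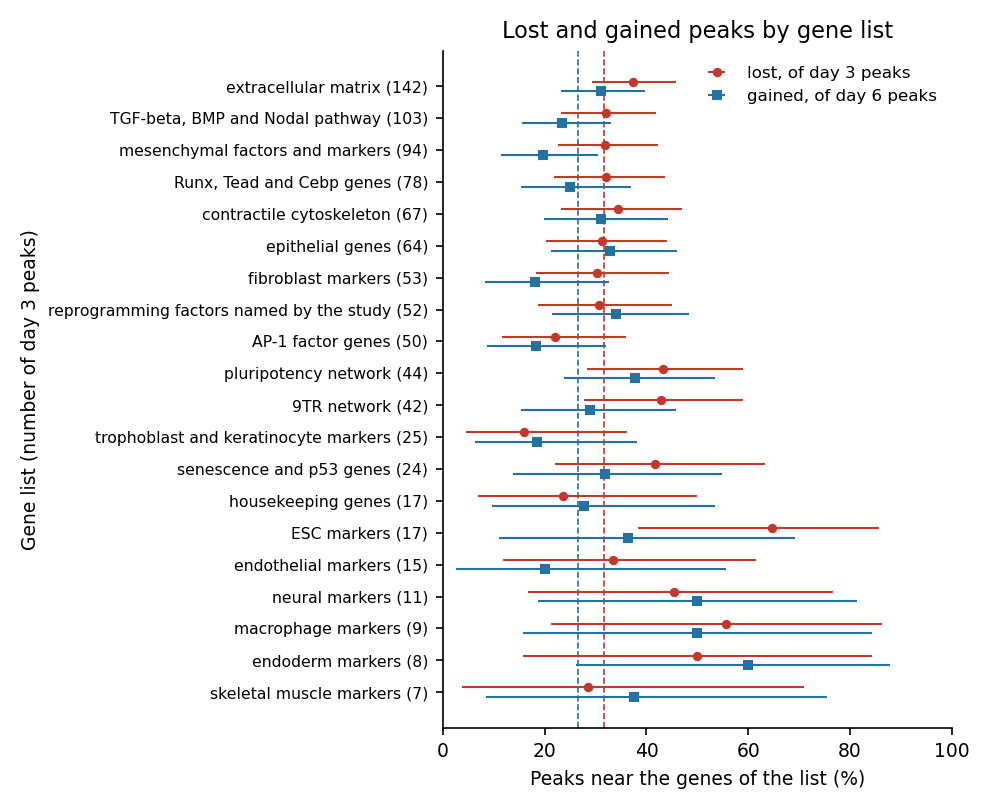
Lost share of day 3 peaks (red circles, %) and gained share of day 6 peaks (blue squares, %) near the genes of each of the 20 lists, with exact 95% intervals and the number of day 3 peaks in brackets. Dashed lines mark the shares over all peaks, 31.6% lost and 26.6% gained. The interval of lost peaks leaves out the red line for ESC markers alone (38.3 to 85.8), where 17 day 3 peaks are counted.

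The genes with most gained over lost peaks were led by Auts2, with 10 gained and 2 lost, then Rab3gap2 (8 and 1) and Tnk2 (7 and 1). Auts2 encodes a chromatin regulator of the nervous system in a gene that runs from 131437333 to 132543344 on chromosome 5. Its gained peaks were 200 to 487 bp wide, 2 of the 10 had a day 0 peak and 5 a day 9 peak, and none held the AP-1 motif. Rasal1, Mgst2, Hmcn1 and Zfp236 gained 5 each and lost none, while Fry gained 9 and lost 4, and March10 and Ets1 gained 6 and lost 1. These last 7 are among 16 genes tied at an excess of 5, taken for having fewest kept day 3 peaks and then by symbol. At Rasal1 a gained peak of 321 bp covered the TSS and was also called on days 0 and 2 and in ESCs. With every list cut to peaks at least 300 bp wide, kept peaks with a narrower partner counted as well. Gained minus lost was then 9 at Auts2 and 3 at Hmcn1, but 2 at Tnk2 and Mgst2. It was 1 at Rab3gap2, Rasal1, Zfp236 and Ets1, 0 at March10 and -1 at Fry. Within 50 kb of the TSS it was 2 at March10 and Zfp236.

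Frmd4a had most lost over gained peaks, with 13 lost and 4 gained, and after it came Pde8b (8 and 0), a phosphodiesterase that degrades cAMP, and Ltbp1 (12 and 5), which binds latent TGF-beta in the matrix. F13a1, Popdc3, Gpatch2, Bach1, Lrp12 and Synpr lost 6 each and gained none, and Pcbp3 lost 7 and gained 1. These 7 are among 12 genes tied at an excess of 6 lost peaks, taken in the same way. With every list cut to peaks at least 300 bp wide, as above, gained minus lost was -8 at Frmd4a and -4 at Bach1 and Lrp12. It was -2 at Pde8b, Gpatch2 and Synpr, -1 at Ltbp1 and F13a1 and 0 at Pcbp3, and Popdc3 had no lost or gained peak left. Within 50 kb of the TSS it was -3 at Ltbp1, Gpatch2, Lrp12 and Synpr, and -2 at F13a1. Of the 8 lost peaks of Pde8b, from 200 to 613 bp wide, 2 had a day 0 peak and 4 a day 2 peak, and the one over the TSS was also called in ESCs. Bach1 encodes a repressor of antioxidant genes. Its widest lost peak ran from 87784172 to 87784968 on chromosome 16 (797 bp), 85227 bp from the TSS, and had been called on days 0, 1 and 2. Auts2, Frmd4a and the like are long genes with many peaks, and counts were not scaled by length.

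The 5 widest lost peaks lay nearest to Actb, 1700019D03Rik, Gm11568, Myh15 and Prkag3, with widths of 812 to 876 bp. The first of them, from 142901614 to 142902489 on chromosome 5, lay 3332 bp downstream of the TSS of Actb (beta-actin) and had a peak on day 9. Of these 5, 3 had been called on day 1. The 5 widest gained peaks lay nearest to Dop1b, Dnah6, Zbtb10, Lrrc74b and Cachd1, with widths of 766 to 853 bp, and each had been called on day 0 or day 1. The Dop1b peak, from 93711243 to 93712095 on chromosome 16, covered the TSS and was missing on days 0 and 3 alone.

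Of the 66 putative reprogramming-inducible enhancers (RIEs) that the study proposes near up-regulated genes, 35 overlapped a peak on both days and 21 on neither. Of the 41 open on day 3, 6 were not open on day 6 (14.6%, 5.57 to 29.2), at Soga3, Zbtb12, Pga5, Tbc1d13, Dab1 and Etv2. Of the 39 open on day 6, 4 were not open on day 3 (10.3%, 2.87 to 24.2), at Insm1, Dennd2c, Bcat1 and Prss8. These shares count elements overlapped by any peak, so different peaks could keep an RIE open, as at Phc1, Rpp25 and Cidea. They are therefore not the same measure as shares of peaks lost or gained. Over all peaks, 31.6% of day 3 peaks were lost and 26.6% of day 6 peaks gained. The study took its RIEs from sites near a TSS. Of all peaks within 1000 bp of any annotated TSS, a different choice, 14.2% of those of day 3 were lost and 15.0% of those of day 6 gained. The part of position in the RIE shares was not tested. The RIEs, a list made by the study itself, are not independent of these cells. None of the 10 RIEs that differed had a day 0 peak, while others open on both days had one, such as those of Kcnt2, Igsf9, Etv1 and Msh6. Over peaks and not elements, 35.7% of all lost and 36.7% of all gained peaks had one. The study chose its RIEs among sites that OSKM came to bind only once reprogramming had begun, a rule on binding and not on open chromatin. Day 1 peaks were called at 5 of the 6 RIEs of day 3, beside 38.8% of all lost peaks, and at none of the 4 of day 6, beside 27.4% of all gained peaks. In ESCs, the RIEs of Pga5, Dab1, Etv2 and Dennd2c were open. The widest of these peaks was the 562 bp peak at Dennd2c on day 6, from 103127058 to 103127619 on chromosome 3. The RIE of Prss8, an epithelial protease, had a peak of 387 bp on day 6 and was also open on days 2 and 9.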

How the data were processed

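Chromatin accessibility was measured by ATAC-seq, with 1 library for each of 7 samples. As deposited by the authors, a file holds 3 columns, the chromosome of a peak and its start and end positions on mm10, with no score, count or signal. According to the study's methods, reads were trimmed with Trimmomatic and mapped with Bowtie2. Samtools and Picard were then used for mate fixing, duplicate removal and downsampling of all samples to the same depth (the number is not given in the sources used here), and MACS2 called peaks in each library.

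Groups were taken from the sample labels. Peaks were compared by 1 bp overlap in Python 3.11.15 (numpy 2.4.6, pandas 2.3.3, scipy 1.17.1, pysam 0.24.0), checked against BEDTools 2.31.1, which gave the same 15216 lost peaks, and tested on 2000 simulated peaks. TSSs and genes came from GENCODE M21 and sequence from the RefSeq copy of GRCm38.p6, the build of the files, in which all peaks lie within the chromosome lengths. The 20 motifs were searched as letters on both strands in the central 200 bp, for peaks on chromosomes 1 to 19, X and Y. Peaks were assigned to the nearest protein-coding TSS within 100 kb. Intervals are exact (Clopper-Pearson, 95%). No test was made, since there is 1 library per day.

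Named are the 10 genes with the largest excess of gained and of lost peaks (ties by fewer kept day 3 peaks, then by symbol), up to 4 genes with the largest difference in each of 20 gene lists, list genes with a promoter peak on 1 day, and the 5 widest peaks of each class. Of the genes this rule picks, 1 list gene is not reported here. Other list members were named after their values were seen. The members, motifs and gene lists were chosen with earlier results of these data known. RIE positions came from the study's supplementary list. Alternatives were a minimum width of 300 bp, set on every list before overlap, a 50% overlap, a distance of 500 bp and equal list lengths. Others were other TSS and motif windows, a limit of 50 kb, and lists cut to peaks shared with day 2 or day 9.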

Additional observations from a re-analysis of the deposited data

How the results depend on the processing

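Most shares moved by more than their counting intervals, while the order of the classes mostly did not. Kept day 3 peaks had the highest TSS-proximal and KLF shares and lost peaks the lowest in each setting tried. AP-1 was ordered lost, kept day 3, gained in each setting except the search of the whole peak, which put kept day 3 peaks first. CTCF was highest in kept day 3 peaks except among peaks at least 300 bp wide, where gained peaks came first, and the order of the Oct-Sox composite varied. Leaving out sequences other than chromosomes 1 to 19, X and Y kept 23 of 23 shares within their intervals. With only peaks at least 300 bp wide, 29.0% of day 3 peaks were lost and 22.9% of day 6 peaks were gained, while of lost peaks, 33.8% were open on day 0, 15.0% on day 9 and 6.43% in ESCs. Of gained peaks, 24.1% were open on day 9 and 10.8% in ESCs, while 18.3% of lost, 27.6% of gained and 52.2% of kept day 3 peaks were TSS-proximal. Here, 24.7% of lost, 11.8% of gained and 14.2% of kept day 3 peaks held AP-1, while 1.43% of lost and 1.07% of gained peaks held the Oct-Sox composite. Here, 1.93% of lost, 2.92% of gained and 2.74% of kept day 3 peaks held CTCF, while 13.0% of lost, 14.1% of gained and 15.5% of kept day 3 peaks held KLF. With an overlap that covered 50% or more of each peak, 49.6% of day 3 peaks were lost and 46.0% of day 6 peaks were gained, while of lost peaks, 20.7% were open on day 0 and 5.87% in ESCs. Of gained peaks, 21.3% were open on day 0, 19.5% on day 9 and 7.02% in ESCs, while 20.8% of lost, 24.2% of gained and 46.1% of kept day 3 peaks were TSS-proximal. Here, 15.4% of lost and 9.04% of gained peaks held AP-1, while 1.35% of lost peaks held CTCF. Here, 11.0% of lost and 14.3% of kept day 3 peaks held KLF. With a peak within 500 bp counted as present, 26.4% of day 3 peaks were lost and 21.1% of day 6 peaks were gained, while of lost peaks, 38.4% were open on day 0, 15.1% on day 9 and 7.89% in ESCs. Of gained peaks, 40.1% were open on day 0, 25.9% on day 9 and 11.8% in ESCs, while 12.3% of lost, 17.8% of gained and 41.1% of kept day 3 peaks were TSS-proximal. Here, 17.7% of lost, 7.93% of gained and 13.1% of kept day 3 peaks held AP-1. With the same number of widest peaks taken from both days, 29.1% of day 3 peaks were lost and 28.5% of day 6 peaks were gained, while of lost peaks, 36.6% were open on day 0 and 15.2% on day 9. Of gained peaks, 37.6% were open on day 0 and 23.8% on day 9, while 16.9% of lost peaks held AP-1. In another setting the day 3 list was cut to peaks also called on day 2, and the day 6 list to peaks also called on day 9. Of the cut day 3 list, 24.98% had no peak in the cut day 6 list, and 24.8% the other way. Against the uncut lists, 11.8% of day 3 peaks open on day 2 were lost, and 10.2% of day 6 peaks open on day 9 were gained. With TSS-proximal set at 2500 bp, 23.3% of lost, 28.2% of gained and 47.8% of kept day 3 peaks were TSS-proximal. With protein-coding TSSs only, 9.06% of lost, 14.2% of gained and 36.3% of kept day 3 peaks were TSS-proximal. With the whole peak searched for motifs, 20.3% of lost, 9.65% of gained and 21.3% of kept day 3 peaks held AP-1, while 1.43% of lost, 1.03% of gained and 1.73% of kept day 3 peaks held the Oct-Sox composite. Here, 1.29% of lost, 1.89% of gained and 4.73% of kept day 3 peaks held CTCF, while 13.3% of lost, 14.3% of gained and 27.3% of kept day 3 peaks held KLF. With the central 100 bp searched, 8.43% of lost, 3.45% of gained and 7.80% of kept day 3 peaks held AP-1, while 0.473% of lost, 0.344% of gained and 0.573% of kept day 3 peaks held the Oct-Sox composite. Here, 0.4998% of lost, 0.722% of gained and 1.22% of kept day 3 peaks held CTCF, while 5.32% of lost, 5.38% of gained and 7.13% of kept day 3 peaks held KLF.

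Of 85 genes named by the rule, a limit of 50 kb kept the gained share of gained and lost peaks together within its 95% interval for 74, moved it beyond for 7 and left 4 without such a peak. With every list cut to peaks at least 300 bp wide, kept peaks with a narrower partner counted too. In that setting 49 genes stayed within the interval, 8 moved, 20 had no peak left and 8 changed sign. Gained minus lost then became -1 for Fry, -2 for Batf3, -1 for Esrrb, 2 for Smad3, 1 for Cdh5, -1 for Klf5, -1 for Pax7 and -1 for Tfap2c. The cause of these moves was not tested.

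No paired analysis was possible because each day is 1 library. The lists give no depth, score or signal, so a peak lost and a peak just under the calling threshold cannot be told apart, and 67.1% of the narrowest day 3 peaks were lost. Depth therefore cannot be set beside any share. No replicate shows how many peaks would differ between libraries of the same day, so the lost and gained shares have no background of that kind.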

Other observations

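Outside chromosomes 1 to 19, X and Y, 47 day 3 peaks were called, of which 10 were lost, and 48 day 6 peaks, of which 12 were gained.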
